A study of Danio rerio with 40 samples.

Results

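Sperm small RNAs of zebrafish males were compared after the first period of a crossover experiment, when no male had yet been through another treatment. The comparison is High1 against Low1. High1 samples came from males of the AB wild type strain held for 2 weeks in tanks with 2 males and 1 female, and Low1 samples from AB males held for the same time with 1 male and 2 females, so that the number of rivals and the sex ratio changed together. The libraries were chosen by the column names of the deposited tables, which gave 10 High1 and 10 Low1 libraries of the 39 in the miRNA table and 6 High1 and 6 Low1 libraries of the 24 in the piRNA cluster table. In both treatments sperm RNA of single males was sequenced, and the 20 males are different fish. Of the High1 males, some may have shared a tank, since the labels do not tie males to tanks, and p-values then measure the spread between these samples only.

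MicroRNAs (miRNAs) are RNAs of about the length of a short primer that pair with messenger RNAs through a seed near their 5′ end and lower the output of those messages. In sperm, which transcribes little, they are carried over from spermatogenesis or taken up later, and in zebrafish the miR-430 family, made by the embryo itself, is known for clearing maternal messages after fertilisation. PIWI-interacting RNAs (piRNAs) are germline small RNAs bound by the PIWI proteins, Ziwi and Zili in zebrafish, and they are best known for silencing transposable elements. They are cut from long precursors made at genomic piRNA clusters. Reads are given by cluster here, but a read that fits several clusters may be counted in each. The reads of a cluster therefore need not be the output of that locus alone, and totals and shares of cluster reads are of such counts. The question addressed by the comparison is whether competition with another male, met without earlier treatment, goes with another small RNA content of sperm.

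Depth varied widely within both groups. Total miRNA reads per library ran from 742784 to 5600401 in High1 (median 1182396) and from 79435 to 8447142 in Low1 (median 2641870.5). Low1 replicates 1 and 3 were the shallow ones, with 79435 and 166612 reads, so a single read counted as 36.8 and 11.0 normalised reads there and low miRNAs were often at 0. Total piRNA cluster reads ran from 17047635 to 56435023 in High1 and from 26806298 to 42483801 in Low1, and each of the 1434 clusters was detected in each of these 12 libraries. High1 replicate 1 stood apart in the piRNA table, where 42.7% of its reads fell in a single cluster against 11.7% to 31.5% in the other High1 libraries and 15.4% to 32.9% in Low1, so piRNA results that moved with it are given with and without it. The treatment label of the public record named another group for 5 of the 20 first-period samples, 1 of High1 and 4 of Low1, and the comparison was therefore repeated without them. They were High1 replicate 9 (labelled Low1) and Low1 replicates 3 (High2), 6 (Low2), 8 (Low2) and 9 (High1). Of these, Low1 replicates 6 and 9 are in the piRNA table. For most second-period libraries the label named another group too, often the opposite treatment.

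No miRNA differed between High1 and Low1 at an adjusted p under 0.05. In 1 limma fit of all 4 treatment groups, with Benjamini-Hochberg adjustment over the 346 miRNAs, 0 were called (0% of those tested), and the smallest adjusted p was 0.408. Below 0.05 before adjustment were 11 miRNAs (3.18%), with 4 higher in High1 (1.16%) and 7 lower (2.02%). There was no miRNA whose High1 and Low1 libraries did not overlap. A fit of the recovered reads by limma-voom also called 0, with 11 at an unadjusted p under 0.05. A negative binomial model of the same reads called 4 of 342 miRNAs (1.17%), all higher in High1, and 0 of them (14 at an unadjusted p under 0.05) once High1 replicates 7 and 8 were left out. When each library was centred on its own median, 22 miRNAs had an unadjusted limma p under 0.05, 19 higher and 3 lower in High1, so the balance of directions depended on the scaling, which put the median log2 fold change of all miRNAs at 0.099 in place of 0.02.

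**Figure D1:**
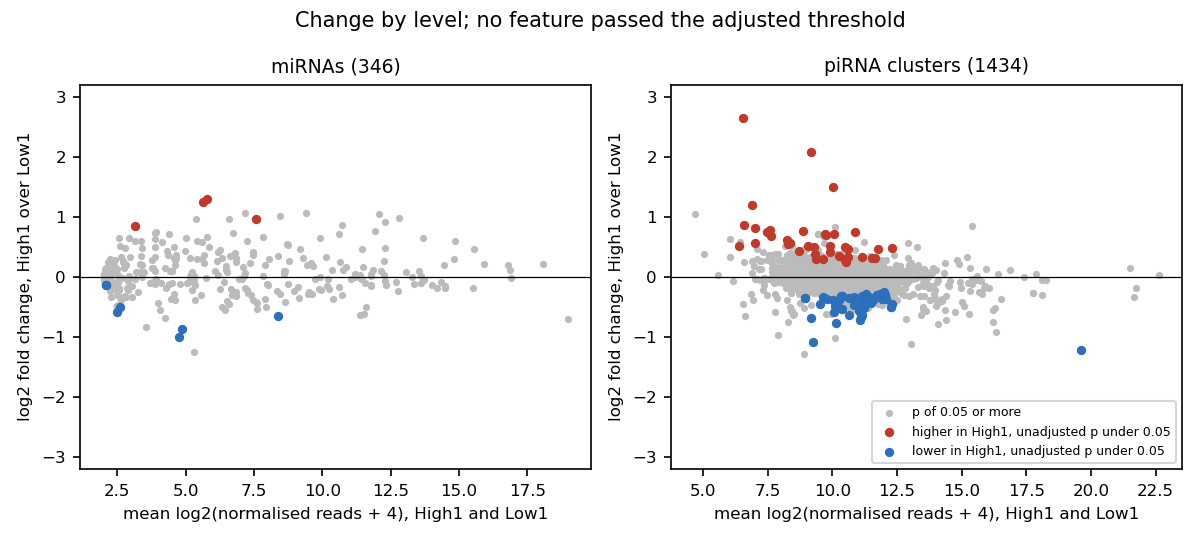
Log2 fold change of High1 over Low1 (vertical axis) against the mean deposited level, log2(normalised reads + 4), over both groups (horizontal axis), for 346 miRNAs (left) and 1434 piRNA clusters (right). Coloured points had an unadjusted limma p under 0.05, red where higher in High1 (4 miRNAs, 38 clusters) and blue where lower (7 miRNAs, 53 clusters), and most of the miRNAs among them lie at low levels.

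The ranges of the most abundant miRNAs overlapped between the groups. miR-2189 headed the table and ranged widely in both, from 74016 to 1121434 normalised reads in High1 (median 483382) and from 209278 to 2030375 in Low1 (median 539148). The groups overlapped over most of that range, and the log2 fold change was -0.70 ± 0.49 (SE; limma, p = 0.158, adjusted p = 0.774). let-7a, of the let-7 family known for timing differentiation, came next, with 172206 to 594955 normalised reads in High1 (median 308358) and 183491 to 325695 in Low1 (median 255989). Its log2 fold change was 0.22 ± 0.19 (SE; limma, adjusted p = 0.832), and High1 replicate 5, at 594955, was above all other libraries. The members let-7f and let-7g had log2 fold changes of 0.60 and 0.46 (standard errors 0.33 and 0.25, both with a limma adjusted p of 0.774). miR-21, known for its rise in inflamed and regenerating tissue, had 42852 to 190858 normalised reads in High1 (median 61326) and 41012 to 71266 in Low1 (median 56376), and its High1 maximum was replicate 4 alone. The log2 fold changes of the other 5 among the most abundant ran from -0.19 for miR-128-3p to 0.30 for miR-25-3p, with -0.01 for miR-22a-3p, 0.11 for miR-100-5p and 0.19 for miR-92a-3p, and none had an unadjusted p under 0.05.

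Among miRNAs higher in High1, the smallest p-values were those of miR-23b-3p and miR-23b, whose deposited values are nearly the same. miR-23b-3p had 54.6 to 143.7 normalised reads in High1 (median 80.6) and 0 to 134 in Low1 (median 44.9). The 2 Low1 libraries at 0 were the shallow replicates 1 and 3, and the other 8 had 30.2 to 134 normalised reads, so the groups overlapped. Its log2 fold change was 1.30 ± 0.47 (SE; limma, p = 0.00866, adjusted p = 0.763), and it was 0.55 in the negative binomial model (adjusted p = 0.392). miR-23a-3p of the same family had 358 to 1033 normalised reads in High1 and 121 to 609 in Low1, a log2 fold change of 0.53 ± 0.27 (SE; limma, p = 0.0536, adjusted p = 0.774). miR-732 was low in both groups, with 0 to 33.9 normalised reads in High1 (median 8.59) and 0 to 7.93 in Low1 (median 2.81), a log2 fold change of 0.85 ± 0.33 (SE; limma, p = 0.0138). miR-1, the muscle miRNA, had 64.2 to 2084 normalised reads in High1 (median 245) and 58.5 to 716 in Low1 (median 126), a log2 fold change of 0.96 ± 0.47 (SE; limma, p = 0.0495). Its highest value was High1 replicate 9, which the public record labels Low1, and the other muscle miRNAs are given with the marker lists. The remaining 5 of the 10 smallest p-values in this direction, miR-129-3-3p, miR-129-1-3p, miR-181a-4-3p, miR-455-3p and miR-1388-5p, had log2 fold changes from 0.51 to 1.00 and limma p-values from 0.0503 to 0.0634.

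Lower in High1 with the smallest p of all miRNAs was miR-181d-5p, which was close to the limit of detection. It had 0 to 1.80 normalised reads in High1 (median 0) and 0 to 11.0 in Low1 (median 2.81), and 6 of the 10 High1 libraries had no read of it, against 1 of the 10 Low1 libraries. Its log2 fold change was -0.59 ± 0.17 (SE; limma, p = 0.00118, adjusted p = 0.408) on a scale that understates changes of low miRNAs. miR-216a, best known from the pancreas, had 4.92 to 34.0 normalised reads in High1 (median 16.1) and 12.7 to 73.6 in Low1 (median 36.8), a log2 fold change of -0.995 ± 0.33 (SE; limma, p = 0.00470, adjusted p = 0.763). It was lower in High1 within 4 of the 5 sequencing pools. The largest difference, -3.10 on the log2 scale in pool 3, rests on 1 Low1 library. That library is the shallow replicate 1, where a single read counts as 36.8 normalised reads. miR-34b, of a family that in mice serves spermatogenesis and the making of motile cilia, had 6.92 to 42.4 normalised reads in High1 (median 16.0) and 22.6 to 66.1 in Low1 (median 33.4). Its log2 fold change was -0.87 ± 0.37 (SE; limma, p = 0.0234, adjusted p = 0.774), with lower means in High1 in all 5 pools, though High1 replicates 1, 9 and 10 lay inside the Low1 range. For miR-34b too, the pool 3 difference of -1.40 rests on the shallow Low1 replicate 1. miR-30e-5p had 138 to 516 normalised reads in High1 (median 276) and 221 to 955 in Low1 (median 367), a log2 fold change of -0.65 ± 0.29 (SE; limma, p = 0.0294). miR-183-3p and miR-181b-3p were at 0 in all 10 High1 libraries and reached no more than 2.11 and 2.08 normalised reads in Low1. In 6 of the 10 Low1 libraries each was at 0 too, and the other 4 held 1 to 7 reads of miR-183-3p and 1 to 4 of miR-181b-3p. Median miRNA totals were 1182396 reads in High1 and 2641870.5 in Low1. The part of depth in the zeros of miR-181d-5p, miR-183-3p and miR-181b-3p was not tested. miR-459-3p was low as well, with 0 to 7.42 normalised reads in High1 and 0 to 22.0 in Low1 (log2 fold change -0.50 ± 0.24, SE). miR-723-3p, miR-27e and miR-22b-5p were abundant enough to be read in each library, with log2 fold changes of -0.64, -0.36 and -0.51 and limma p-values of 0.0665, 0.0689 and 0.0749.

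A set of miRNAs was far higher in 2 of the 10 High1 libraries, replicates 7 and 8, than in any Low1 library. miR-10b-5p, encoded in the Hox gene clusters, had 61358 and 55414 normalised reads in these 2 libraries, 3739 to 14796 in the other 8 High1 libraries and 3485 to 7981 in Low1. The group medians were 7224 in High1 and 5107 in Low1, and 5 of the 10 High1 libraries lay above the Low1 maximum. Its log2 fold change was 0.97 ± 0.54 (SE; limma, p = 0.0775, adjusted p = 0.774). miR-183-5p, of a cluster known from sensory cells, had 18314 and 14217 normalised reads in replicates 7 and 8, 827 to 2916 in the other High1 libraries and 768 to 2477 in Low1, a log2 fold change of 0.86 ± 0.60 (SE; limma, adjusted p = 0.776). miR-182-5p of the same cluster had 8867 and 9015 in replicates 7 and 8, 273 to 1245 in the other High1 libraries and 165 to 930 in Low1. miR-30e-3p was at 59261 and 83458 normalised reads in replicates 7 and 8 against 2309 to 5672 in the rest of High1 and 1830 to 4938 in Low1. These 4 were the miRNAs called by the negative binomial model, with log2 fold changes from 1.75 to 2.44 and adjusted p-values from 0.00934 to 0.0377. The opposite arm of the same precursor, miR-30e-5p, did not share this pattern, since replicates 7 and 8 had 173 and 170 normalised reads of it, near the bottom of High1. miR-30e-3p and miR-182-5p were picked out after their values were seen.

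**Figure D2:**
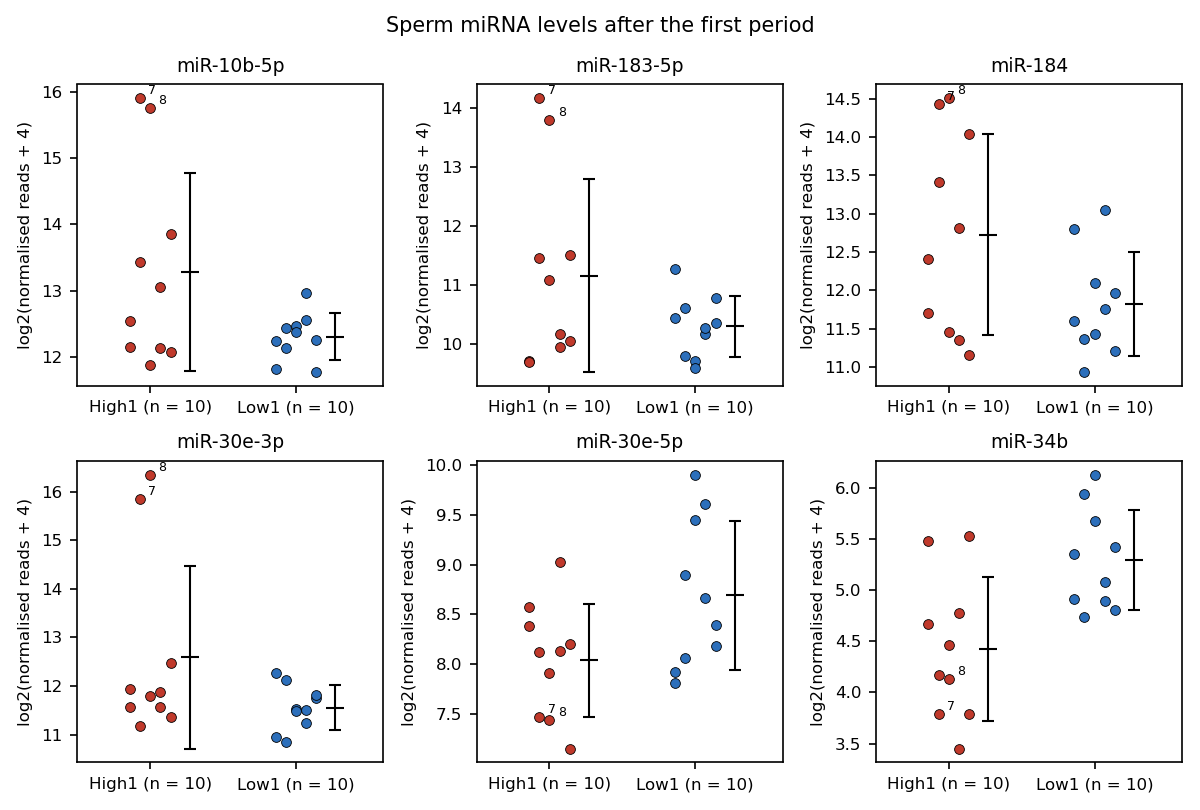
Deposited level, log2(normalised reads + 4), of 6 miRNAs in the 10 High1 (red) and 10 Low1 (blue) libraries, with the mean and SD of each group drawn at its right. High1 replicates 7 and 8 are numbered and sit above all other libraries for miR-10b-5p, miR-183-5p, miR-184 and miR-30e-3p but not for miR-30e-5p or miR-34b.

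miR-184, known from the eye, and miR-375, known from endocrine cells, were above the Low1 range in 4 and 6 of the 10 High1 libraries, against 5 for miR-10b-5p. miR-184 had 22023 and 23245 normalised reads in High1 replicates 7 and 8 and 10902 and 16836 in replicates 2 and 5, where the Low1 maximum was 8502. The other 6 High1 libraries had 2284 to 7195, inside the Low1 range of 1953 to 8502, and the log2 fold change was 0.91 ± 0.51 (SE; limma, p = 0.0850, adjusted p = 0.774). miR-375, also picked out after its values were seen, was above the Low1 maximum of 1681 normalised reads in 6 of the 10 High1 libraries, with a log2 fold change of 0.71 ± 0.38 (SE; limma, p = 0.0666). miR-200a-5p, of a family that marks epithelia, was highest in High1 replicates 2 and 5, with 601 and 835 normalised reads against 28.7 to 204 in Low1. miR-129-5p, miR-181a-5-3p and miR-193b-5p were highest in replicates 7 and 8 as well, with log2 fold changes over the whole groups of 0.46, 0.47 and 0.66 (limma adjusted p-values of 0.832, 0.833 and 0.833). Replicates 7 and 8 are both of sequencing pool 5, which held 1 Low1 library with 5560 normalised reads of miR-10b-5p. The difference of means for miR-10b-5p was 3.39 on the log2 scale within pool 5 and 0.15 to 0.68 within pools 1 to 4. With pool as a covariate in a fit of High1 and Low1 only, the log2 fold change of miR-10b-5p was 0.88 ± 0.35 (SE; limma, p = 0.0222, adjusted p = 0.819). Of the second-period libraries, Low2 replicates 6 and 7, both labelled High2 in the public record, had 96101 and 139181 normalised reads of miR-10b-5p. All others of that period had 3487 to 11821. These 2 Low2 libraries are of pool 5 as well, so the 4 highest libraries of the series all came from that pool, which also held 3 High2 libraries at 4836 to 6599.

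Families and marker lists were described by their counts beside those of all 346 miRNAs, of which 192 were higher and 154 lower in High1, with 3.18% at an unadjusted p under 0.05 and a median log2 fold change of 0.02. Of the 11 let-7 miRNAs, 7 were higher and 4 lower in High1, the median was 0.10, and 0 had an unadjusted p under 0.05. Family members took a median of 23.9% of normalised reads in High1 (18.2% to 46.0%) and 20.2% in Low1 (12.0% to 29.0%). The miR-10, miR-99 and miR-100 family had 11 of 13 members higher in High1 (median 0.10), and again 0 with an unadjusted p under 0.05. All 13 miR-430 entries were lower in High1 (median -0.48), but they stand for 5 distinct sets of values, they made up at most 0.00663% of High1 and 0.0216% of Low1 normalised reads, and 0 had an unadjusted p under 0.05. The miR-17-92 family split evenly, 13 higher and 13 lower of 26. In the miR-23, miR-27 and miR-24 clusters, 7 of 17 were higher, among them the 2 miR-23b entries with an unadjusted p under 0.05, and the median was -0.14. In the miR-181 family, 10 of 12 were higher (median 0.15), whereas the 2 members with an unadjusted p under 0.05 were lower.

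Markers of cells other than sperm were read in both groups. The red blood cell miRNAs miR-451 and miR-144 took 0.0156% to 0.0895% of High1 and 0.0108% to 0.0944% of Low1 normalised reads, and the white blood cell miRNAs miR-142, miR-223 and miR-150 at most 0.0144% and 0.0128%. The muscle list (miR-1, miR-133 and miR-206) took 0.0138% to 0.143% in High1 and 0.00755% to 0.0594% in Low1, with 3 of its 6 members higher in High1 and miR-1 as the single one with an unadjusted p under 0.05. The epithelial list, with miR-200, miR-141, miR-429, miR-203 and miR-205, took 0.950% to 6.06% in High1 and 1.02% to 7.18% in Low1, and 0 of its 16 members had an unadjusted p under 0.05. The neural list, with miR-9 and miR-124, took 0.301% to 1.07% in High1 and 0.315% to 1.43% in Low1, and the liver marker miR-122 took 0.0783% to 0.282% and 0.0969% to 0.440%, with 0 members below that p in either. miR-202, the miRNA of fish gonads, took 0.0345% to 0.4004% in High1 and 0.0352% to 0.319% in Low1, with both arms lower in High1 (log2 fold changes of -0.50 and -0.31, unadjusted limma p-values of 0.2497 and 0.508). The ranges of these lists overlapped between the groups, and the part of such cells in the results was not tested. In bulk sperm samples, fewer cells of a type and less RNA per cell cannot be told apart.

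Among piRNA clusters, limma called 0 of 1434 between High1 and Low1 (0%), with a smallest adjusted p of 0.273. Below 0.05 before adjustment were 91 clusters (6.35%), with 38 higher (2.65%) and 53 lower (3.7%) in High1, and limma-voom called 0 with 95 below that level. The balance of directions depended on the setting, with 41 higher and 41 lower after median centring, 31 and 22 with pool as a covariate, and 31 and 100 in the libraries with agreeing labels. The negative binomial model called 10 clusters (0.697%), 9 higher (0.628%) and 1 lower (0.0697%) in High1. These counts depended on High1 replicate 1. Without it, limma called 0 but had 210 clusters at an unadjusted p under 0.05 (14.6%), 79 higher (5.51%) and 131 lower (9.14%), the smallest adjusted p was 0.0851, and the negative binomial model called 167 (11.6%), 74 higher (5.16%) and 93 lower (6.49%). Leaving out any other single library kept the limma count at 0. A fit with the replicate number as a block, over the 4 numbers shared by both groups, called 3 clusters, all higher in High1, although same-numbered males of these groups share only a number.

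In 5 clusters (0.349% of 1434), every High1 library lay above every Low1 library, and in 0 clusters below. How many clusters would separate in this way by chance was not tested. The cluster with the smallest p, 5:747001-760987, lies on chromosome 5 of GRCz11, is 14.0 kb long and was predicted by the authors with piRNAs from both strands. It had 2072, 2125, 3520, 2644, 2535 and 1983 normalised reads in High1 replicates 1, 3, 4, 6, 7 and 10, and 1425, 1277, 1763, 1120, 1823 and 1449 in Low1 replicates 4, 5, 6, 7, 9 and 10. All of High1 was thus above the Low1 maximum. The highest Low1 values, 1763 and 1823, were those of replicates 6 and 9, whose public labels name another group. The log2 fold change was 0.74 ± 0.17 (SE; limma, p = 0.00019, adjusted p = 0.273), and the negative binomial model gave an adjusted p of 0.0112. Without High1 replicate 1 the log2 fold change was 0.78 (limma adjusted p = 0.0851). Cluster 7:63048-99933 on chromosome 7, 36.9 kb on the minus strand, had 3546 to 4994 normalised reads in High1 (median 3925) and 2173 to 3486 in Low1 (median 3079), a log2 fold change of 0.46 ± 0.12 (SE; limma, p = 0.000964, adjusted p = 0.562). The known cluster NC_007118.7:2885044-2893968, also on chromosome 7, had 437 to 526.3 normalised reads in High1 and 310 to 412 in Low1, a log2 fold change of 0.43 ± 0.13 (SE; limma, adjusted p = 0.617). On chromosome 4, whose long arm is rich in repeats, NC_007115.7:61579484-61590581 had 333 to 465 in High1 and 228 to 322 in Low1 (log2 fold change 0.57 ± 0.17, SE). The fifth, NC_007115.7:70988014-70996952, had 796 to 997 in High1 and 673 to 767 in Low1 (log2 fold change 0.29 ± 0.13, SE).

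**Figure D3:**
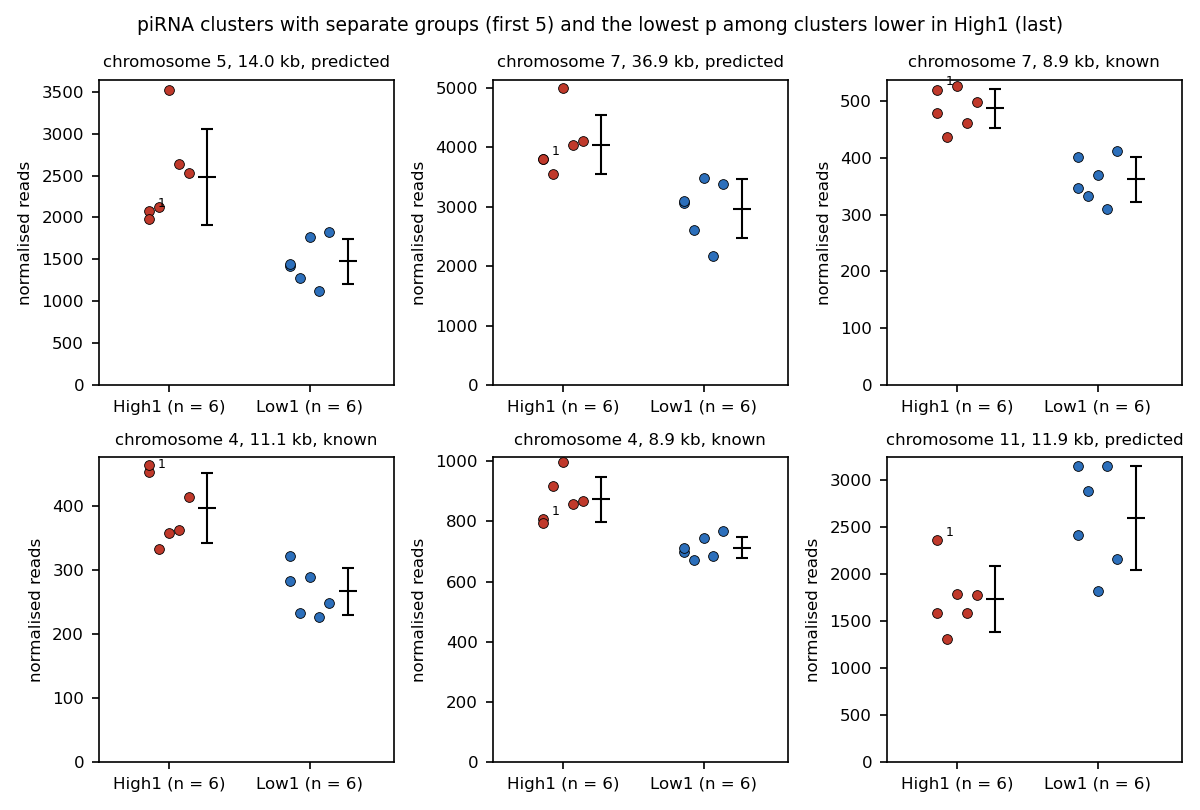
Normalised reads of 6 piRNA clusters in the 6 High1 (red) and 6 Low1 (blue) libraries, with the mean and SD of each group at its right and High1 replicate 1 numbered. In the first 5 panels all High1 points lie above all Low1 points, and in the last, the cluster 11:37007002-37018889, High1 replicate 1 has the highest High1 value at 2359 normalised reads.

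Among the 10 clusters with the smallest p higher in High1, 1:57940016-57946585 had the largest log2 fold change. This 6.57 kb predicted cluster of chromosome 1 had 138, 34.7, 366, 380, 869 and 235 normalised reads in High1 replicates 1, 3, 4, 6, 7 and 10, and 22.2, 19.9, 14.7, 38.4, 59.4 and 80.9 in Low1 replicates 4, 5, 6, 7, 9 and 10. All High1 libraries but replicate 3 lay above the Low1 maximum of 80.9. The log2 fold change was 2.65 ± 0.77 (SE; limma, p = 0.00211, adjusted p = 0.605), and the negative binomial model called it (adjusted p = 0.00283). The limma fit with the block called it too (adjusted p = 0.0470), but that fit left out High1 replicates 1 and 3, the 2 lowest of High1 here. Low1 replicates 5 and 9 were left out as well. The other 2 clusters called with the block overlap each other on chromosome 19 and can share reads. They are 19:10800007-10816911, with 539 to 3464 normalised reads in High1 (median 1995) and 394 to 1367 in Low1 (median 545), and NC_007130.7:10803053-10812792, with 178 to 3230 in High1 (median 1403) and 119 to 975 in Low1 (median 253). Replicate 3 was the lowest High1 library in both, as it was in 1:57940016-57946585, and the fit with the block did not include it. Their log2 fold changes were 1.49 and 2.08 (standard errors 0.53 and 0.78, both with a limma adjusted p of 0.753). The further 5 with the smallest p-values, 20:12225229-12234949, NC_007131.7:12194045-12201974, 4:35809259-35820789, NC_007129.7:32777075-32792025 and NC_007114.7:50461172-50467957, had log2 fold changes from 0.49 to 0.70 and limma adjusted p-values from 0.71 to 0.753, and their groups overlapped. Of the other clusters that the negative binomial model called, 16:17948005-17953983, NC_007115.7:43701007-43707025, NC_007125.7:11574186-11579825 and NC_007130.7:16906265-16910931 had limma log2 fold changes from 0.52 to 1.19. They, the overlapping pair on chromosome 19 and NC_007115.7:70988014-70996952 were picked out after their values were seen.

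Lower in High1 with the smallest p was 11:37007002-37018889, an 11.9 kb predicted cluster of chromosome 11 with piRNAs from both strands. Its normalised reads were 2359, 1316, 1789, 1585, 1779 and 1585 in High1 replicates 1, 3, 4, 6, 7 and 10, against 3150, 2879, 1823, 3148, 2156 and 2413 in Low1 replicates 4, 5, 6, 7, 9 and 10. The lowest Low1 values, 1823 and 2156, were those of replicates 6 and 9, whose public labels name another group. Only High1 replicate 1 reached into the Low1 range. The log2 fold change was -0.57 ± 0.16 (SE; limma, p = 0.00118, adjusted p = 0.562) and -0.67 without that library (adjusted p = 0.0851). Cluster 16:14845000-14858022 on chromosome 16 had 3585 to 4029 normalised reads in High1 (median 3734) and 3936 to 6199 in Low1 (median 4811), a log2 fold change of -0.37 ± 0.11 (SE; limma, p = 0.00164, adjusted p = 0.587). High1 was narrow here, and Low1 replicate 9 at 3936 was the one Low1 library within its range. The public record labels that library High1. On chromosome 20, 20:12040021-12048006 had 370 to 576 normalised reads in High1 and 495 to 898 in Low1 (log2 fold change -0.68 ± 0.23, SE), and the negative binomial model called it (adjusted p = 0.0219). The known cluster NC_007115.7:41969000-41973948 had 959 to 2380 in High1 and 2170 to 3961 in Low1 (log2 fold change -0.72 ± 0.23, SE). The other 6 of this direction, 12:8514222-8527785, CHR_ALT_CTG16_1_6:11834028-11848027, 4:63919001-63930996, 22:30426001-30437014, NC_007115.7:46831029-46839861 and 4:53125049-53136026, had log2 fold changes from -0.77 to -0.31, each with a limma adjusted p of 0.753.

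The 10 most abundant clusters took 69.9% to 88.3% of the reads of a High1 library and 72.0% to 85.7% of those of a Low1 library, so their reads set much of the total. NC_007115.7:55793547-55813463 on chromosome 4 had 3007329 to 23484032 normalised reads in High1 (median 6086625) and 4091083 to 10225406 in Low1 (median 6292942), and its High1 maximum was replicate 1. Its log2 fold change was 0.03 ± 0.69 (SE), and -0.34 without that library. NC_007118.7:4067-8848, NC_007115.7:77550078-77563945 and NC_007115.7:34306979-34316570, likewise among the most abundant, had log2 fold changes of -0.19, 0.14 and 0.05, and of -0.57, -0.16 and -0.29 without High1 replicate 1. NW_003336678.1:0-33253, on an alternative locus or scaffold, was the one most abundant cluster with an unadjusted p under 0.05, at 129653 to 1400294 normalised reads in High1 (median 678661) and 467433 to 2565293 in Low1 (median 1447711), a log2 fold change of -1.23 ± 0.57 (SE; limma, p = 0.0428). It was -1.01 without High1 replicate 1 (limma p = 0.102). With pool as a covariate in a fit of High1 and Low1 only, it was -0.60 ± 0.67 (SE; limma, p = 0.389). The remaining 5, NW_003336940.1:509-10420, 8:48510001-48530023, NC_007127.7:15774355-15790983, NW_001884427.4:76878-82862 and 4:50433058-50458024, had log2 fold changes from -0.34 to -0.06. Of other clusters that the study discusses, NC_007115.7:52720448-52740603 had 41352 to 94865 normalised reads in High1 (median 56645) and 60317 to 219915 in Low1 (median 123429), a log2 fold change of -0.92 ± 0.52 (SE; limma, p = 0.0902). The paper reports this cluster as enriched in sperm of High males, the opposite direction, and names no pair of groups there. The negative binomial model without High1 replicate 1 called it lower in High1, at -1.13 (adjusted p = 0.0403). NC_007133.7:32643430-32648896 rested on a single library, with 14522 normalised reads in High1 replicate 1, 365 to 1691 in the other High1 libraries and 609 to 1186 in Low1. The log2 fold change of this cluster was 0.82 ± 0.57 (SE), and 0.16 ± 0.41 (SE) without that library. The paper reports this cluster as lower in sperm of High males, again the opposite direction. Cluster NC_007123.7:14899002-14913024 had a log2 fold change of -0.11 ± 0.16 (SE).

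Known clusters, taken by the authors from a piRNA cluster database, and clusters predicted from reads by proTRAC were described apart, a split made after the values were seen. Of the 532 known clusters 296 were higher in High1 (55.6%), with a median log2 fold change of 0.04, and of the 902 predicted ones 401 (44.5%), with a median of -0.03. At an unadjusted limma p under 0.05, the known clusters had 23 higher and 9 lower in High1 and the predicted ones 15 higher and 44 lower. Over all 1434 clusters the shares at that level were 2.65% higher and 3.7% lower. With pool as a covariate in a fit of High1 and Low1 only, the known clusters had 15 higher and 9 lower and the predicted ones 16 higher and 13 lower. Lower predicted clusters did not outnumber higher ones there. In that fit pool 3 held High1 replicates 3 and 4 and no Low1 library, so these 2 added nothing to the contrast. It had 53 clusters at an unadjusted p under 0.05, against 91 in the main fit, and the part of pool in the pattern cannot be told from these counts. Without High1 replicate 1 the medians were 0.10 for known and -0.04 for predicted clusters, with 59 higher and 18 lower against 20 higher and 113 lower. The shares over all clusters were then 5.51% higher and 9.14% lower. Leaving out another library instead gave medians from 0.01 to 0.05 for known and from -0.05 to -0.02 for predicted clusters, and the number of lower predicted clusters then ran from 18 to 70. Within the libraries whose labels agree, 6 of High1 and 4 of Low1, the known clusters had 19 higher and 19 lower (median 0.07) and the predicted ones 12 higher and 81 lower (median 0.00). On chromosome 4, which holds 303 of the clusters, the median was -0.02, with 10 higher and 11 lower in High1, against 6.35% below that p over all clusters. Without High1 replicate 1 the chromosome 4 median was 0.03, with 25 higher and 15 lower, where 14.6% of all clusters were below that p.

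By library, the median deviation of the known clusters from their first-period mean, less that of the predicted clusters, does not depend on the scaling of the library. It was 0.15, 0.09, 0.15, 0.19 and 0.13 on the log2 scale in High1 replicates 3, 4, 6, 7 and 10 and -0.47 in High1 replicate 1. In Low1 replicates 4, 5, 6, 7, 9 and 10 it was -0.18, -0.07, 0.01, 0.09, -0.02 and -0.04. Of the High1 values, 4 lay above the highest Low1 value, replicate 4 was level with it at this rounding, and replicate 1 was the lowest of all 12. Second-period values spread as far, from 0.02 to 0.27 in High2 and from -0.36 to 0.22 in Low2.

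**Figure D4:**
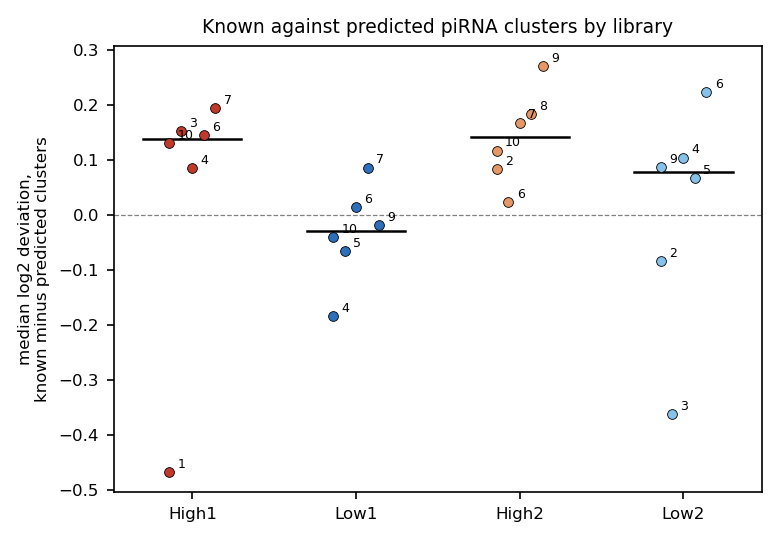
Median log2 deviation of known piRNA clusters from their first-period mean minus that of predicted clusters (vertical axis) in each library of the 4 groups, with replicate numbers beside the points and a bar at each group median. High1 replicate 1, at -0.47, lies below every other library, and the other 5 High1 libraries lie between 0.09 and 0.19, against -0.18 to 0.09 in Low1.

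Values of whole libraries were compared by permutation, and none passed an adjusted p of 0.05 over the 10 tests. In a principal component analysis of the miRNAs in the 20 first-period libraries, PC1 held 15.1% of the variance and its score was 3.06 ± 6.70 in High1 and -3.06 ± 6.56 in Low1 (SD, n = 10 each; two-sided permutation test, p = 0.0519, adjusted p = 0.259). High1 replicates 7, 5, 8 and 2 held the upper end, with scores of 14.1, 12.5, 8.19 and 6.71, and the shallow Low1 replicate 3 the lower end at -18.2. For piRNA clusters, PC1 held 32.7% of the variance and mostly set High1 replicate 1, at -57.5, against the rest, so that the group means of 2.50 ± 30.4 in High1 and -2.50 ± 9.82 in Low1 (SD, n = 6 each) differed less than their spread (two-sided exact permutation test, p = 0.777). Without replicate 1, a new analysis put High1 at 14.3 ± 11.5 (SD, n = 5) and Low1 at -11.9 ± 14.1 (SD, n = 6) on its PC1 (two-sided exact permutation test, p = 0.00866, unadjusted). The groups then overlapped by 1 library of each, from 1.53 to 31.8 in High1 and from -36.2 to 2.31 in Low1. Over the clusters, the distance of each library to the mean of the other libraries of its group was larger in High1 than in Low1. Euclidean distances were 20.2 ± 6.17 in High1 and 14.4 ± 2.79 in Low1 (SD, n = 6 each; exact permutation test, p = 0.0455, adjusted p = 0.259). The distances of a group share libraries, and they were permuted without new group means. Their p-values are therefore approximate as a test of spread. Without High1 replicate 1 the difference of 2.96 had p = 0.165 by the same exact test. Leaving out Low1 replicate 5, 6, 7, 9 or 10 instead also put this p above 0.05, with differences from 4.49 to 6.13. Over the miRNAs these distances were 14.4 ± 2.21 in High1 and 14.5 ± 5.32 in Low1 (SD, n = 10 each; permutation test, p = 0.936).

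**Figure D5:**
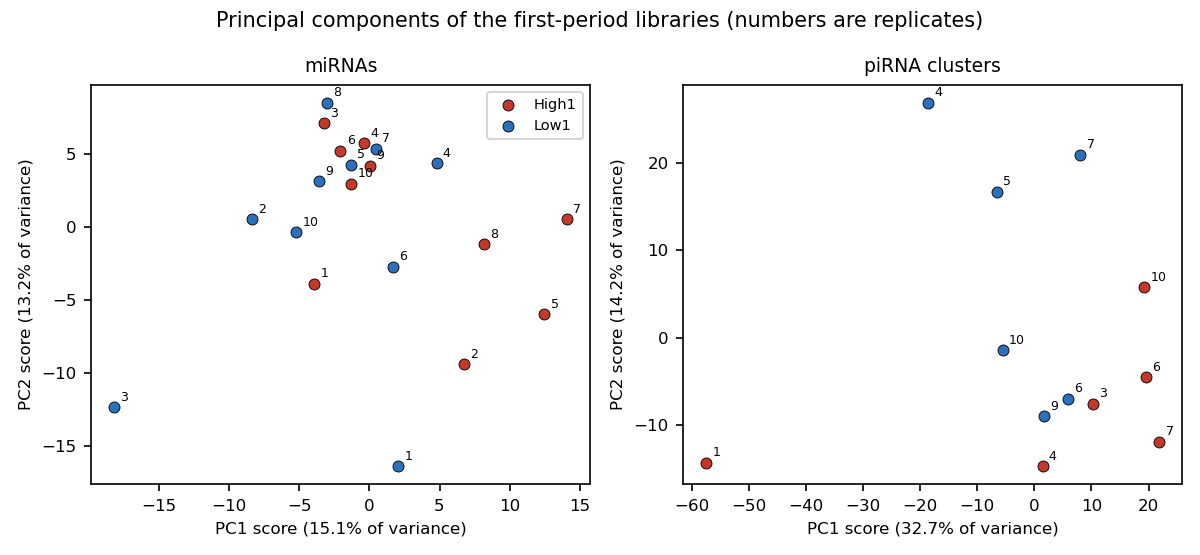
PC1 and PC2 scores of the first-period libraries for miRNAs (left, 10 High1 and 10 Low1) and piRNA clusters (right, 6 High1 and 6 Low1), with replicate numbers beside the points. For miRNAs, High1 replicates 2, 5, 7 and 8 lie at the right and the rest mix with Low1, and for piRNA clusters High1 replicate 1 lies alone at the left with a PC1 score of -57.5.

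The numbers of reads and of detected miRNAs did not separate the groups. Geometric mean miRNA totals were 1544209 in High1 and 1813550 in Low1 (difference -0.23 on the log2 scale, permutation test, p = 0.765), and those of piRNA cluster reads 29365926 and 32691345 (exact permutation test, p = 0.582). At the depth of the shallowest library, 79435 reads, 197 ± 6.71 miRNAs would be detected in High1 libraries and 196 ± 13.0 in Low1 libraries (SD, n = 10 each; permutation test, p = 0.791), and at full depth the numbers ran from 245 to 305 in High1 and from 176 to 312 in Low1. The 10 most abundant miRNAs took 77.4% ± 2.60 of High1 and 80.1% ± 5.96 of Low1 reads (SD, n = 10 each; permutation test, p = 0.215). In the 12 libraries of both tables, miRNA reads amounted to 2.26% to 16.1% of piRNA cluster reads in High1 (geometric mean 6.59%) and to 7.54% to 23.0% in Low1 (geometric mean 11.9%). The log2 ratio was lower by 0.849 in High1, which was within the spread between libraries (two-sided exact permutation test, p = 0.149, adjusted p = 0.498). Without High1 replicate 1 the difference was -0.54 (exact permutation test, p = 0.299).

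In the second period the treatments were crossed, so the difference between the effects of the first and second periods equals that between the High-first and the Low-first line and cannot be told apart from it. Each male was sampled in both periods, but the fit treated all libraries as independent. Standard errors and p-values of this contrast therefore make no allowance for samples of the same male. By limma this contrast called 0 miRNAs, with 28 of 346 at an unadjusted p under 0.05 (8.09%), and 0 piRNA clusters, with 119 of 1434 (8.3%). High2 against Low2 alone had 4.05% of miRNAs and 10.2% of clusters at that level, and 0 called of each. Second-period groups follow the column names here, and the public record names another group for most of these libraries. Low2 replicates 6 and 7, for example, are labelled High2 there. Where the label names the opposite treatment, the sign of a second-period difference depends on which label is right. That was not tested. For miR-10b-5p the log2 fold change of High over Low was 0.97 in the first period and -1.01 in the second (contrast 1.98, standard error 0.77, limma p = 0.0140, adjusted p = 0.511). Its highest values were those of High1 replicates 7 and 8 and Low2 replicates 6 and 7, all of pool 5. Without High1 replicates 7 and 8 the first-period log2 fold change was 0.33 ± 0.49 (SE; limma, p = 0.501). Cluster 5:747001-760987 had 0.74 in the first period and -0.35 in the second (contrast 1.09, standard error 0.24, limma p = 0.000118, adjusted p = 0.169). High2 libraries had 1412 to 1855 normalised reads of 5:747001-760987, all below the High1 minimum of 1983, and Low2 libraries 1458 to 3207. Cluster 16:14845000-14858022, which the study names, had log2 fold changes of -0.37 in the first period and -0.13 in the second. Others of the 10 clusters with the smallest p lower in High1 did not stay below 0 in the second period.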

How the data were processed

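Sperm small RNA was sequenced by the study as single-end reads, adaptors were trimmed, and reads were aligned with PatMaN, without mismatch or gap, to mature zebrafish miRNAs of miRBase or to piRNA clusters, 532 known and 902 predicted by proTRAC on GRCz11. The submitters' processing notes name GRCz10 and DESeq2. The authors deposited log2 values, found here to equal log2(reads scaled by library + 4). Whole reads were recovered from 100% of the values (tolerance 0.05 reads). A read that fits several clusters may be counted in each.

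High1 and Low1 were compared with limma 3.58.1 in R 4.3.3 (lmFit, eBayes with a trend, all 4 groups in the fit, treatment as the sole factor), two-sided, with Benjamini-Hochberg adjustment over all features and a threshold of 0.05. Single values of libraries were compared by permutation (100000 resamples, or all arrangements with 6 per group) in Python 3.11.15 with scipy 1.17.1. Fold changes are differences of mean log2(normalised reads + 4), which understates those of low features. Voom and a purpose-written negative binomial Wald model used recovered reads, since count tools do not take log2 values. The scripts were tested on simulated data. High1 replicate 10, a number that heads 2 columns of a supplementary count table, equalled in all 346 miRNAs the column whose library number its public label gives.

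Features were named if past the threshold, named in the paper, among the 10 smallest p in each direction or among the 10 most abundant, and a few were added after their values were seen. The comparison, lists and rules were chosen with earlier results of these data known. Reads carry no molecular identifiers, so depth covers counting error only. Second-period libraries, from the same males, entered the fit as independent samples, and embryo data were not analysed here. No sequences were printed because no sequence table of these features was used here. Alternatives were no trend, median centring, dropping the lowest 25% of features, a pseudocount of 1, only High1 and Low1, the replicate number as a block, the public treatment labels, libraries with agreeing labels, pool as covariate, identical features once, a floor of 500000 reads, and each library left out.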

Additional observations from a re-analysis of the deposited data

Results flagged for a closer look

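In groups of 6 to 10 libraries, 180 groups of values were examined for a library whose gap to its nearest neighbour took an unusual share of the range (Dixon's test), and 9 stood out, 5%, where chance alone gives about 1 in 20. High1 replicate 4 had 1033 normalised reads of miR-23a-3p, against 358 to 558 in the other High1 libraries, and 190858 of miR-21, against 42852 to 73926. Low1 replicate 6 had 9.20 normalised reads of miR-181a-4-3p, above the 0 to 3.08 of the other Low1 libraries. For miR-459-3p, High1 replicate 10 had 7.42, above 0 to 1.80. The shallow Low1 replicate 1 had 1545 normalised reads of miR-723-3p, below 2792 to 5149.

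Among piRNA clusters, High1 replicate 3 had 178 normalised reads of NC_007130.7:10803053-10812792, below the 1109 to 3230 of the other High1 libraries. Low1 replicate 4 had 110 normalised reads of NC_007131.7:12194045-12201974, below 151 to 180.0, and Low1 replicate 7 had 131801 of NC_007115.7:34306979-34316570, below 221383 to 289181. High1 replicate 1 had a piRNA PC1 score of -57.5, where the other High1 libraries had 1.45 to 21.9. It is the library with the highest piRNA cluster total, 56435023 reads, and the part of depth in this was not tested.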

How the results depend on the processing

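Limma called 0 miRNAs and 0 piRNA clusters in all settings but one: the replicate block, over 4 numbers shared by both groups, called 3 clusters. Same-numbered samples are different males and share only a number, and their deviations had mean correlations of -0.003 over 10 miRNA pairs, where 0 correlated best with their own number, and -0.02 over 4 piRNA pairs, where 2 did. The same block called 0 miRNAs, with 21 below 0.05 before adjustment. The negative binomial model called 4 miRNAs and 10 clusters, and 167 clusters without High1 replicate 1, a setting added after the data were seen, like the one without High1 replicates 7 and 8. With single libraries left out, the limma counts stayed at 0 (0 to 0), and the High1 minus Low1 difference ran from 3.595 to 6.88 for miRNA PC1, from 0.688 to 26.2 for piRNA PC1, from -0.73 to 0.015 for log2 miRNA totals, from -0.34 to 0.00215 for log2 piRNA totals, from -1.01 to 3.22 for miRNAs detected at equal depth, from -0.19 to 3.47 percentage points for the 10 most abundant clusters, from -0.91 to 1.12 for miRNA distances, from -1.11 to -0.54 for the log2 ratio of miRNA to piRNA cluster reads and from 2.96 to 7.65 for piRNA distances. miRNA PC1 had an unadjusted p under 0.05 in 9 of these 20 settings, and the lowest was 0.0347 (permutation test).

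Some small log2 fold changes turned sign, and the cause was not tested. Without High1 replicates 7 and 8, miR-181a-5-3p was at -0.022, miR-193b-5p at -0.084, miR-92a-3p at -0.064 and miR-22a-3p at 0.00030, and in the negative binomial model without them miR-129-5p was at -0.074 and miR-92a-3p at -0.11. With the public treatment labels, miR-181b-3p was at 0.013, miR-22a-3p at 0.079, NC_007118.7:4067-8848 at 0.023 and 8:48510001-48530023 at 0.40. In libraries with agreeing labels, miR-22a-3p was at 0.17, 8:48510001-48530023 at 0.20 and 4:50433058-50458024 at 0.067. For miR-22a-3p, median centring gave 0.061, pool as covariate 0.020, limma-voom 0.023 and libraries of at least 500000 reads 0.037. Pool as covariate gave 0.12 for NC_007127.7:15774355-15790983. With the replicate block, NC_007133.7:32643430-32648896 was at -0.25, NC_007115.7:55793547-55813463 at -0.11, NC_007115.7:77550078-77563945 at -0.00081, 8:48510001-48530023 at 0.29 and NC_007115.7:34306979-34316570 at -0.036. The negative binomial model gave 0.12 for NC_007118.7:4067-8848 and 0.13 for NC_007127.7:15774355-15790983, and without High1 replicate 1 it gave -0.28 for NC_007115.7:55793547-55813463 and 0.11 for NW_003336940.1:509-10420. With single libraries left out, the log2 fold change ran from -0.068 to 0.084 for miR-22a-3p, from -0.34 to 0.26 for NC_007115.7:55793547-55813463, from -0.76 to 0.15 for NW_003336940.1:509-10420, from -0.16 to 0.34 for NC_007115.7:77550078-77563945, from -0.24 to 0.11 for 8:48510001-48530023, from -0.39 to 0.086 for NC_007127.7:15774355-15790983 and from -0.30 to 0.31 for NC_007115.7:34306979-34316570. Depth limits the low miRNAs, since a single read weighs 36.8 normalised reads in Low1 replicate 1.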
